A study of Drosophila melanogaster with 2 samples.

Results

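Cytosolic ribosomal protein genes encode the protein parts of the ribosome that works outside the mitochondria. The set was every protein-coding gene of the dm6 annotation (Ensembl release 115) whose symbol begins with RpL or RpS, together with sta, the gene of the small subunit protein also known as RpSA. It held 93 genes of the 13945 protein-coding genes on 2L, 2R, 3L, 3R, 4 and X. All values come from ChIP-seq of whole Drosophila melanogaster pupae, 24 hours of age per the labels, from a transgenic line stably expressing the chromosomal protein D1 with GFP at its C terminus. Chromatin was precipitated with an antibody against GFP in 2 biological replicates of 1 group. Sex was not collected, and sonicated fragments of 200 to 800 bp are stated. Every animal carried the tagged D1, and a control file entered the peak calling only. No second genotype or time was analysed here, so no comparison between conditions was possible. Whole pupae mix all cell types, and peak positions do not tell in which cells D1 was bound. The labels do not give the promoter that drives the transgene or how many pupae each replicate pooled, and p-values over 2 replicates are not given.

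The authors deposited 4 peak lists. Each replicate and the pooled data had 30000 peaks, and a set of 3388 peaks had been selected by the irreproducible discovery rate (IDR), a measure of how well peak ranks repeat between replicates. The IDR peaks were the 3388 highest of the pooled list. A gene was counted as bound when the summit of a peak, its highest point, lay within 500 bp of any annotated transcript start of the gene. Peak signal is the authors' own value, and its scale is not stated, so it served only to rank peaks within a list. Read depth is unknown. No test compared these genes with other genes, because neighbouring genes share peaks and genes are not replicates; the shares of all coding genes bound by the same rule are given as background.

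Ribosomal protein genes are among the most strongly transcribed genes of a growing cell, and most of their products are needed in about equal amounts. In flies, loss of a single copy of many of them causes the Minute phenotype of slow growth and short bristles. Their promoters commonly start transcription at a run of pyrimidines, the TCT initiator, in place of the standard initiator. D1 is an AT-hook protein, known from A/T-rich satellite repeats of pericentromeric heterochromatin.

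The promoters that carried the strongest D1 signal are shown as sequence, because D1 contacts A/T-rich DNA. Each line gives 121 bases centred on the pooled summit, read from the Release 6 reference (dm6 coordinates) on the strand of the gene, with capitals for uninterrupted runs of at least 8 A or T bases.

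RpL37A (chr2L:5070874-5070994, plus strand): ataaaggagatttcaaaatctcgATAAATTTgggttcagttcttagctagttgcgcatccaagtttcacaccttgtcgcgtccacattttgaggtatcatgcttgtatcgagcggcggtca
RpS26 (chr2L:18443578-18443698, minus strand): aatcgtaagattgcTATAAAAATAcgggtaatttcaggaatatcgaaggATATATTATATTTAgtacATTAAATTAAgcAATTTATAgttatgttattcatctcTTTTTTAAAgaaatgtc
RpS3A (chr4:67250-67370, minus strand): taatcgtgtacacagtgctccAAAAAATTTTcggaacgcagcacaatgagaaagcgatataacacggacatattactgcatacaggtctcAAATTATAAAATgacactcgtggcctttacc
RpS7 (chr3R:30209431-30209551, minus strand): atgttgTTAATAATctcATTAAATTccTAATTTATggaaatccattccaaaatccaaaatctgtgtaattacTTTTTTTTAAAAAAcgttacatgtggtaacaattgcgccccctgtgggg
RpS30 (chr3R:20850306-20850426, plus strand): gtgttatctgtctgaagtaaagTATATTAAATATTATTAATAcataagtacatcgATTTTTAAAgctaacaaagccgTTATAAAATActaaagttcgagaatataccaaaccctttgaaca

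These windows ranged in AT content from 57.0% at RpL37A to 76.9% at RpS26. The RpS26, RpS7 and RpS30 windows held several marked A/T runs each, and the RpL37A window held a single one.

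Ribosomal protein genes were bound at a rate close to that of all coding genes on the long lists and below it in the IDR list, although both comparisons changed when coding genes were limited by length. In the IDR list 5 of 93 were bound (5.38%), against 8.46% of all coding genes. In the pooled list 25 of 93 were bound (26.9%), against 26.7% of all coding genes. The list of replicate 1 gave 23 genes (24.7%), against 28.7% of coding genes, and that of replicate 2 gave 25 (26.9%), against 27.5%. Over the replicates the bound share was 25.8% ± 1.52 for ribosomal protein genes and 28.1% ± 0.852 for all coding genes (SD, n = 2). When only the 3388 highest peaks of each replicate were used, 3 genes were bound in replicate 1 and 4 in replicate 2, against 8.68% and 8.50% of coding genes. The IDR count of 5 was above both replicate counts, and each of these shares was under the coding share.

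**Figure D1:**
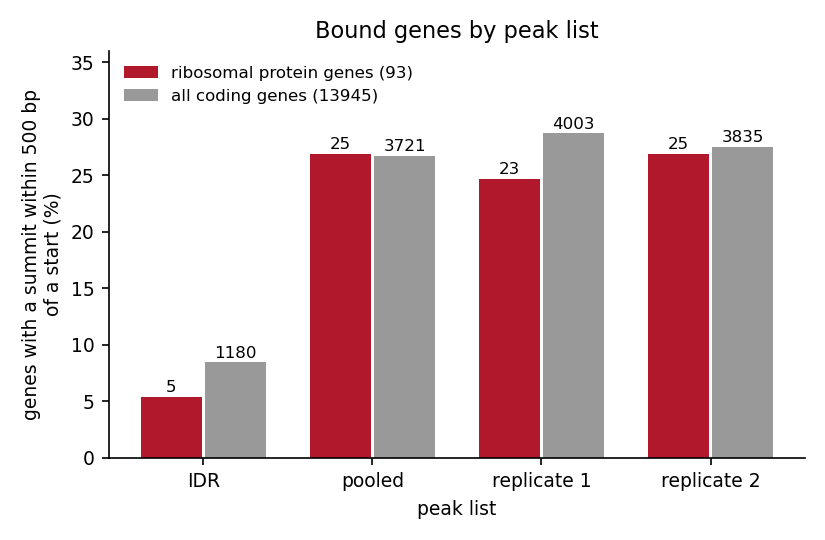
Percent of the 93 cytosolic ribosomal protein genes (red) and of all 13945 coding genes (grey) with a summit within 500 bp of a start in each deposited peak list, with the number of bound genes above each bar. The bars of a pair are close in height in the pooled list (26.9% and 26.7%), and the red bar is lower in the IDR list (5.38% and 8.46%).

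The genes bound in the IDR list were RpL37A, RpS26, RpS3A, RpS7 and RpS30. All 5 were bound in both replicate lists as well, and IDR peaks were selected by how well ranks repeat between replicates. RpL37A, a large subunit gene (FBgn0261608), had the highest peak of the set, at chr2L:5070724-5071143, with its summit at -23 bp from the nearest start, where a negative distance is upstream. Its signal was 201 in the pooled list, rank 1684, with 86.3 in replicate 1 (rank 2218) and 107 in replicate 2 (rank 1840). The summit lay in an exon of the antisense RNA gene asRNA:CR45305, whose start is 109 bp from a start of RpL37A, so the peak cannot be given to either gene alone.

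The other 4 IDR-bound genes encode small subunit proteins, and their summits were intergenic. RpS26 (FBgn0261597) had its peak at chr2L:18443428-18443847, its summit at -361 bp, with a pooled signal of 189 (rank 1924), 76.4 in replicate 1 and 104 in replicate 2. No other gene had a start within 1000 bp of it. RpS3A (FBgn0017545), the only ribosomal protein gene on chromosome 4, had its peak at chr4:67100-67519, its summit at -103 bp, with a pooled signal of 160 (rank 2658), 67.1 in replicate 1 and 95.5 in replicate 2. On that small, largely heterochromatic chromosome 92.5% of coding genes were bound in the pooled list and 48.8% in the IDR list.

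RpS7 (FBgn0039757), which holds 7 snoRNA genes on its strand, had its peak at chr3R:30209281-30209700, its summit at -471 bp, with a pooled signal of 145 (rank 3231), 74.2 in replicate 1 and 82 in replicate 2. It lay near the edge of the 500 bp limit, and in replicate 1 the highest summit was at -216 bp instead. The start of Anp, which encodes an antibacterial peptide of the male reproductive tract, lay 928 bp from a start of RpS7. RpS30 (FBgn0038834) had its peak at chr3R:20850156-20850575, its summit at -150 bp, with a pooled signal of 142 (rank 3369), 69.5 in replicate 1 and 78.9 in replicate 2. Its rank was close to the last of the IDR list. The 5 peaks ranked from 1684 to 3369 of 3388, with a median signal of 160, against a median of 208 at all 1180 IDR-bound coding genes.

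Below the IDR set, RpS28b (pooled signal 132, rank 3910), RpS15Aa (128, rank 4100) and RpL15 (127, rank 4171) had the next highest peaks. RpS28b had a signal of 50.7 in replicate 1 and 78.8 in replicate 2. RpS15Aa had 45.5 in replicate 1 and 79.0 in replicate 2, with its summit in the 5' UTR. RpL15 had 63.9 in replicate 1 and 62.1 in replicate 2, with its summit in coding sequence. RpS2 and RpS21 followed at ranks 5154 and 5923, each ranked higher in replicate 2 (3947 and 3749) than in replicate 1 (13030 and 12406). Among the other named genes, RpL5, whose product joins the ribosome with 5S rRNA, ranked 8834, RpL8 ranked 9672, RpL7 ranked 9768, and RpL40, which encodes a fusion of ubiquitin with a ribosomal protein, ranked 10490. RpL38 (rank 11375), RpS12 (rank 12404), whose product is known from cell competition in flies, and RpS28-like (rank 13464) came next. RpL8 and RpS28-like were bound in replicate 2 and had no summit within the limit in replicate 1.

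The pooled signals of the 25 bound genes ran from 55.6 to 201, with a median of 81.6, against 99.7 over all 3721 pooled-bound coding genes. Their median rank was 9768, against 6641 over all those coding genes. Of the 25, 20 were bound in both replicate lists. RpL8, RpL27 and RpS28-like lacked a summit in replicate 1, and RpS5a and RpS15 lacked one in replicate 2. A further 3 genes were bound in a replicate list and not in the pooled list: RpS23 in replicate 1, and RpL10Ab and RpS9 in replicate 2. In none of the 4 lists were 65 of the 93 genes bound. The shares of all coding genes bound in both replicate lists or in no list are not given here, so these counts describe the set only.

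**Figure D2:**
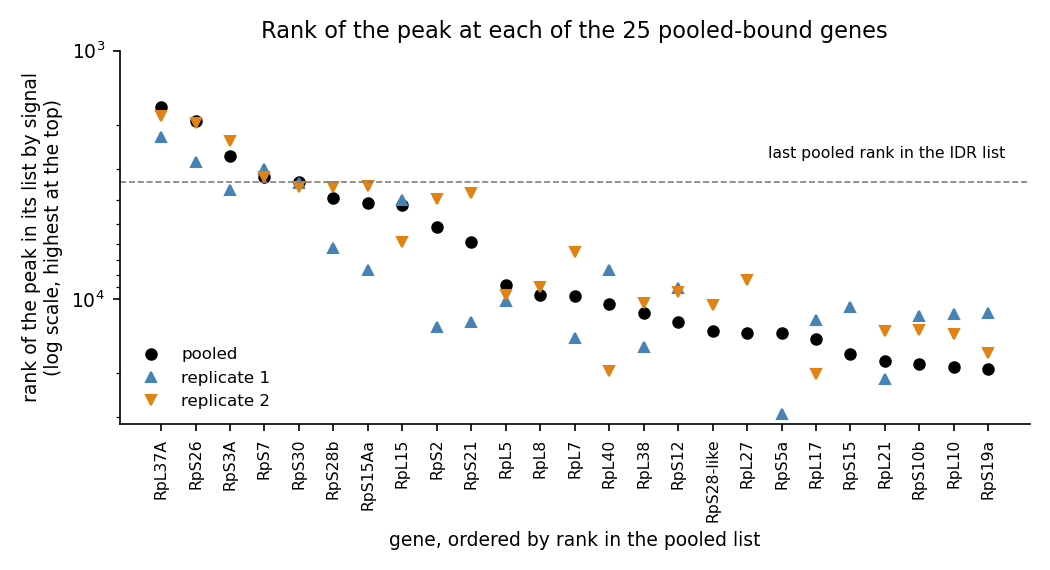
Rank by signal of the highest peak within 500 bp of a start at each of the 25 pooled-bound genes, on a log scale, in the pooled list (circles) and in each replicate's list (triangles). Pooled ranks run from 1684 at RpL37A to 19110 at RpS19a, and only the leftmost 5 genes have their pooled circle above the dashed line at rank 3388.

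Summits lay on both sides of the start in the pooled list and upstream in the IDR list. Of the pooled-bound genes, 13 had the highest summit upstream and 12 downstream of the nearest start, with a median of -15 bp, a lower quartile of -109 bp and an upper quartile of 131 bp. Over all pooled-bound coding genes 71.6% were upstream, with a median of -141 bp. In the replicate lists 65.2% (replicate 1) and 64.0% (replicate 2) of the bound ribosomal protein genes had the summit upstream, against 72.6% and 68.8% of the bound coding genes. All 5 IDR summits were upstream, with a median of -150 bp, as were 83.6% over all IDR-bound coding genes. By annotation, 11 of the 25 pooled summits were intergenic, 5 lay in the gene's own 5' UTR, 4 in its coding sequence, 3 in its introns and 2 in another gene only.

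The members just inside the 500 bp limit in the pooled list were RpS7, with its nearest summit at 471 bp, and RpS28-like at 468 bp. Just outside were RpS23 at 510 bp, RpL37-1 at 515 bp and RpL19 at 553 bp.

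**Figure D3:**
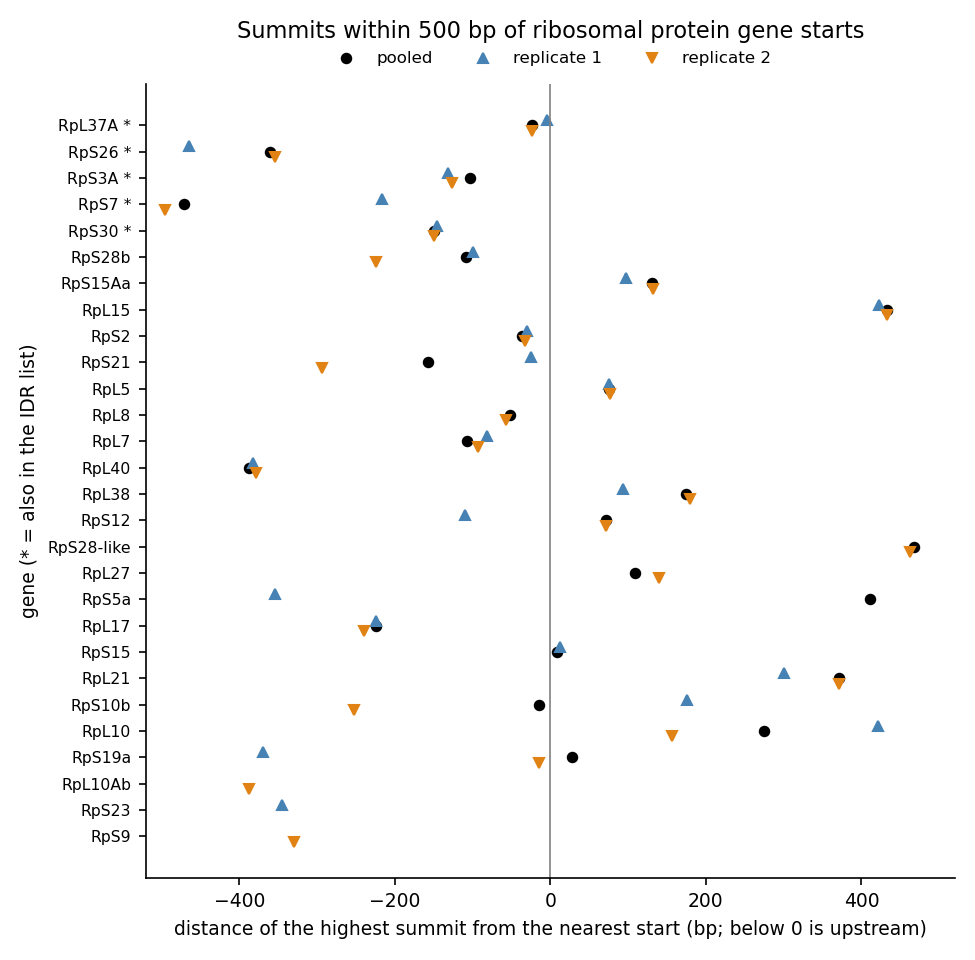
Distance of the highest summit from the nearest annotated start for the 28 ribosomal protein genes bound in at least 1 list, with genes bound in the IDR list starred and the 3 genes bound in a replicate list alone at the bottom. Circles are pooled summits and triangles are those of the replicates; all 5 starred genes have their pooled summits left of the start, between -471 and -23 bp.

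Small subunit genes were bound more often than large subunit genes in every list under the 500 bp rule, by counts alone and with no test. All lists come from the same 2 replicates. In the IDR list 4 of 39 small subunit genes (10.3%) and 1 of 51 large subunit genes (1.96%) were bound, on either side of the 8.46% of all coding genes. Within 250 bp these IDR counts were 2 and 1, and in the upper part of the IDR list by signal 0 and 1. The pooled shares kept their order there, with 25.6% and 15.7% within 250 bp and 28.2% and 17.6% in the upper part. In the full pooled list 14 of 39 small subunit genes (35.9%) and 11 of 51 large subunit genes (21.6%) were bound, on either side of 26.7%. Replicate 1 gave 35.9% and 17.6%, against 28.7% of coding genes, and replicate 2 gave 33.3% and 23.5%, against 27.5%. Subunits were assigned by symbol and not by the role of the product. The 39 thus include RpS28-like, and the 51 include RpL7-like, RpL22-like, RpL24-like and RpLP0-like, which were bound in no list. The small subunit genes include sta, RpS3, whose product lines the mRNA entry channel, and RpS6, known as a target of S6 kinase, and none of these 3 was bound in any list. The 3 stalk genes, RpLP0, RpLP1 and RpLP2, whose products form the flexible arm that recruits elongation factors, were bound in no list. The nearest pooled summit was 727 bp from a start of RpLP0, 7596 bp from RpLP1, 7064 bp from RpLP2 and 59984 bp from sta.

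Ribosomal protein genes in pairs named by symbol were bound at a rate near the background. Of the 18 genes in pairs, 5 were bound in the pooled list (27.8%), against 26.7% of the other 75 members and 26.7% of all coding genes. The set held 9 paralogue pairs named a and b or 1 and 2. In the pooled list 5 pairs had exactly 1 bound gene, namely RpS5a, RpS10b, RpS15Aa, RpS19a and RpS28b, and 4 pairs had none. Each replicate list likewise gave 5 pairs with 1 bound gene and 0 pairs with both bound. In replicate 2 RpL10Ab was bound and RpS5a was not. The unbound partners were RpS5b, RpS10a, RpS15Ab, RpS19b and RpS28a. None of the 18 was in the IDR list. Of 5 genes with symbols ending in -like, RpS28-like was bound in the pooled list, and RpL7-like, RpL22-like, RpL24-like and RpLP0-like were not. The naming rule left the -like genes out of the pairs. RpS28-like and RpS28b were both bound in the pooled list and in replicate 2, so the absence of pairs with both bound depends on that rule.

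The ribosomal protein genes in the centromere-proximal segments used here were all bound in the pooled list and not in the IDR list. In the segments next to the centromeres, taken as the first 4 Mb of 3R, the first 6 Mb of 2R, 3L beyond 23 Mb, and 2L and X beyond 22 Mb, lay RpL5, RpL10, RpL15, RpL21 and RpL38. All 5 were bound in the pooled list and in both replicate lists, against 51.4% of the 218 coding genes there in the pooled list. None was bound in the IDR list, against 8.72% of those coding genes. Their pooled ranks were 4171 for RpL15, 8834 for RpL5, 11375 for RpL38, 17829 for RpL21 and 18804 for RpL10. Every one of these summits lay downstream of the nearest start, from 76 bp at RpL5 to 433 bp at RpL15. The limits of the segments were chosen with earlier results of these data known, and the count depends on them. With 3L taken from 22 Mb, as for 2L and X, RpLP0 at chr3L:22075867, bound in no list, would fall inside.

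Between 4 and 10 pooled summits, with a median of 6, lay within 10000 bp of the 5'-most start of these 5 genes. RpS3A had 25 such summits, and the 87 members elsewhere had a median of 1 and a range of 0 to 13. All coding genes of the segments had a median of 4. The nearest IDR summit was between 30687 bp (RpL10) and 2151281 bp (RpL15) away. Repeat-masked bases made up 14.9% to 27.7% of the 500 bp on either side of these starts, with a median of 18.8%, against 24.0% over all coding genes of the segments. The members elsewhere had a median of 14.2% and a range of 1.90% to 29.6%. Whether repeated sequence moved the calls there was not tested. Outside the segments and chromosome 4, 19 of 87 ribosomal protein genes (21.8%) were bound in the pooled list, against 25.9% of coding genes, and 4 of 87 (4.60%) in the IDR list, against 8.22%. All 5 genes of the segments encode large subunit proteins. Without them and chromosome 4, 13 of 38 small subunit genes (34.2%) and 6 of 46 large subunit genes (13.0%) were bound in the pooled list. Leaving out 5 large subunit genes that were all bound lowers the large subunit share by construction. These shares therefore add nothing to the comparison of the subunits.

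The arms differed in their bound shares. In the pooled list 9 of 19 ribosomal protein genes were bound on 2L (47.4%, against 28.3% of its coding genes) and 6 of 15 on X (40.0%, against 29.4%). On 3L 4 of 14 were bound (28.6%, against 33.2%), on 3R 3 of 23 (13.0%, against 21.5%), and on 2R 2 of 21 (9.52%, against 21.2%). Applying the coding share of each chromosome to the members there gave 24.8 genes, where 25 were counted. The same sum gave 7.88 genes for the IDR list, where 5 were counted.

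**Figure D4:**
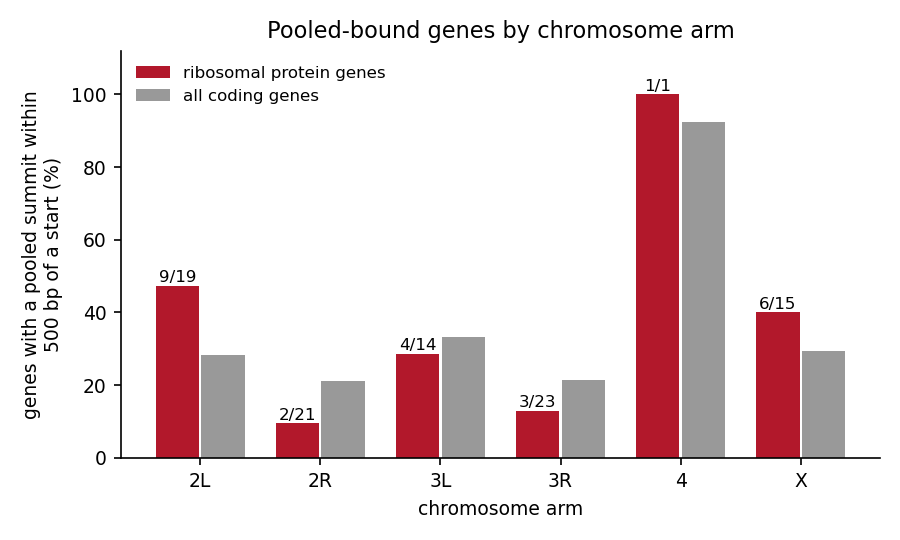
Percent of ribosomal protein genes (red) and of all coding genes (grey) bound in the pooled list on each chromosome arm, with bound and total ribosomal protein genes above the red bars. The red bar is the higher of the pair on 2L, 4 and X and the lower on 2R, 3L and 3R, and chromosome 4 holds a single ribosomal protein gene.

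Ribosomal protein genes were short and crowded. Their median length was 1318 bp, against 2166 bp over all coding genes, and the longest had 4677 bp. Another gene had a start within 1000 bp in 77.4% of them, against 48.2% of coding genes. These neighbours include snoRNA genes that lie inside the members. With coding neighbours alone the shares were 63.4% and 42.9%. Among the 72 with a neighbouring start of any gene 16 were bound in the pooled list (22.2%, against 24.7% of such coding genes). In the IDR list 2 of them were bound (2.78%, against 8.64%). Among the 21 without it 9 were bound in the pooled list (42.9%, against 28.6%) and 3 in the IDR list (14.3%, against 8.30%). The side of the background on which the IDR share fell thus turned with the neighbours counted. At RpL7, the pooled summit lay in the 5' UTR of Ripalpha, whose start is 30 bp away. RpL13 shares its promoter with Dref, the gene of the DREF transcription factor, at a distance of 84 bp, and no list had a summit within 500 bp of either gene.

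Bound shares were also taken by number of starts. Of 48 ribosomal protein genes with 1 start, 20.8% were bound in the pooled list, against 20.7% of coding genes with 1 start. In the IDR list this was 2.08%, against 5.78%, and in replicate 1 14.6%, against 22.4%. With 3 or more starts the pooled shares were 31.2% of 16 and 60.9% of 1133 coding genes. Starts of these 16 genes spanned a median of 322 bp, against 3937 bp for coding genes with as many starts. Of the 29 members that hold a snoRNA gene on the same strand, 7 were bound in the pooled list (24.1%), against 32.1% of the 84 coding genes with a snoRNA gene. Of the 64 members without, 28.1% were bound, against 26.7% of coding genes without. In the IDR list 6.90% of members with a snoRNA gene and 4.69% of those without were bound. When coding genes were limited to those no longer than the longest ribosomal protein gene, 26.9% of ribosomal protein genes and 18.5% of coding genes were bound in the pooled list, and 5.38% and 5.48% in the IDR list. Against genes of that length the pooled share of the set was thus the higher, and the IDR shares were nearly equal.

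The pyrimidine initiator was frequent in the set, with nearly equal shares of bound and unbound ribosomal protein genes. The word TCTTT, on the sense strand and starting within 6 bases before to 5 bases after an annotated start, lay at 45 of 93 (48.4%), against 2.23% of coding genes. It was present at 12 of 25 pooled-bound (48.0%) and 33 of 68 unbound (48.5%) ribosomal protein genes. Over all coding genes TCTTT at any start was more common at bound genes, with 3.39% of pooled-bound and 1.81% of unbound genes. At the 5'-most start alone the shares were closer, at 1.75% and 1.3%. For ribosomal protein genes they were 24.0% of pooled-bound and 27.9% of unbound genes there. None of 73 mitochondrial ribosomal protein genes had it. With CCTTT allowed as well, 56 of 93 (60.2%) had the word, against 3.31% of coding genes. Of the 5 IDR-bound members, 2 had TCTTT at a start and 0 had it at the 5'-most start. Examples follow as 41 bases centred on a start, with TCTTT in capitals, for a pair of IDR-bound genes and 4 genes bound in no list. At RpS26, RpS30 and RpLP0 the start shown is not the 5'-most one.

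RpS26 (chr2L:18443208-18443248, minus strand): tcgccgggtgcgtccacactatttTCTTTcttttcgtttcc
RpS30 (chr3R:20850577-20850617, plus strand): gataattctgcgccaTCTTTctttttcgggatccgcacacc
RpLP0 (chr3L:22076072-22076112, plus strand): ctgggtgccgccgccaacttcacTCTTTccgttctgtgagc
RpLP1 (chr2L:419932-419972, plus strand): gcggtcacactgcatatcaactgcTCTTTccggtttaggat
RpL13A (chr3R:5624454-5624494, plus strand): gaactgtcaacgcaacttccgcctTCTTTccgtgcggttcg
RpL18 (chr3L:7241331-7241371, minus strand): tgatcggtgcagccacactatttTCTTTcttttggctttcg

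These examples were chosen because they hold the word, so they do not compare bound with unbound genes.

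Other words were searched on both strands in 300 bp windows, 250 bp before to 50 bp after the 5'-most start. The DREF word TATCGATA lay in 28 of 93 ribosomal protein promoters (30.1%), against 9.36% of all coding promoters. CGATA, which lies inside it and is the word of BEAF-32, lay in 68 (73.1%), against 47.4%. The M1BP word GGTCACACT lay in 10 (10.8%), against 6.05%, and GAGAG, the word of GAF, in 16 (17.2%), against 29.7%. TATAAA lay in 45 (48.4%, against 45.8%) and CATATG in 4 (4.30%, against 7.82%).

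Between bound and unbound ribosomal protein genes these shares moved in different directions. TATCGATA lay in 6 of 25 pooled-bound (24.0%) and 22 of 68 unbound promoters (32.4%). GGTCACACT lay in 4 of 25 (16.0%) and 6 of 68 (8.82%). A word match does not show that the factor was there.

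Words of A/T-rich DNA were searched in the same windows. AATAT, the unit of a satellite known to bind D1, lay in 79 of 93 ribosomal protein promoters (84.9%, against 72% of coding promoters), with 23 of 25 pooled-bound (92.0%) and 56 of 68 unbound (82.4%). Over bound and unbound coding genes the AATAT shares were 72.9% and 71.7%. AAAAAAAA lay in 21 (22.6%, against 16.0%), with 7 of 25 pooled-bound (28.0%) and 14 of 68 unbound (20.6%). Over bound and unbound coding genes the AAAAAAAA shares were 17.5% and 15.4%. Of the 5 IDR-bound members, 5 had AATAT and 0 had AAAAAAAA, against 77.1% and 18.6% of IDR-bound coding genes. In 1000 bp centred on the start 2 of the 5 had AAAAAAAA (40.0%), against 48.0% of IDR-bound coding genes. These differences were not tested.

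Mean AT content was higher at bound than at unbound ribosomal protein genes over most of the flanks and not at the start itself. In the 300 bp window AT content averaged 62.6% over all ribosomal protein genes (SD 5.14, n = 93 genes), against 60.9% (SD 7.74) over coding genes. It was 63.3% at pooled-bound and 62.4% at unbound ribosomal protein genes, a difference smaller than the SD between genes. Over bound and unbound coding genes the order was the other way, at 60.7% and 61.0%. In 1000 bp centred on the start the means were 61.5% at bound and 57.6% at unbound genes, against 59.6% and 56.8% over bound and unbound coding genes. At the start itself, in 51 bp, bound genes had 53.6% and unbound genes 55.1%. At 300 bp upstream they had 69.7% and 64.6%, at 600 bp upstream 60.4% and 55.2%, and at 300 bp downstream 56.5% and 51.7%. Nearer the start the means were close at some positions, with 69.3% and 68.6% at 200 bp upstream and 63.5% and 63.7% at 80 bp downstream. At other near positions they differed, with 64.0% and 58.5% at 100 bp downstream and 61.3% and 55.2% at 120 bp downstream. No spread between genes was computed for these windows.

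In the 200 bp around the summits, AT content averaged 67.5% (SD 6.65) at the 5 IDR peaks of ribosomal protein genes, against 66.8% (SD 7.33) at the 1019 IDR peaks of all coding genes. At the 25 pooled peaks it was 62.7% (SD 7.80), with a range from 51% at RpS19a to 80.0% at RpL40, against 63.2% (SD 8.70) at 3313 pooled peaks. RpL40, with 11 AATAT words on either strand in that window, ranked 10490, behind RpL37A with 60.0% AT and 1 such word. These sets share a single genome and partly the same peaks.

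**Figure D5:**
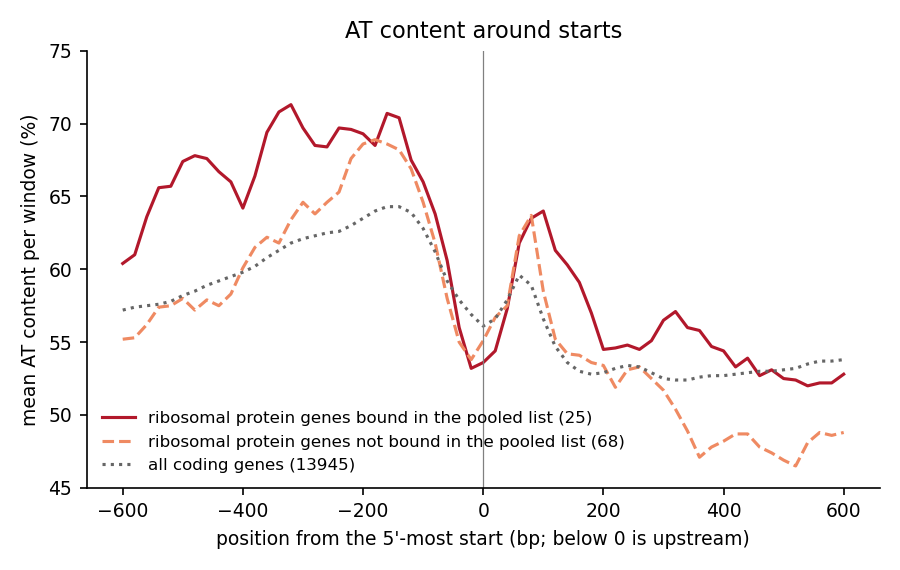
Mean AT content in 51 bp windows around the 5'-most start of the ribosomal protein genes bound in the pooled list (solid), those not bound (dashed) and all coding genes (dotted). The solid line lies above the dashed line at 300 bp upstream (69.7% and 64.6%), and they are close at the start (53.6% and 55.1%).

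Distance to the nearest summit placed most ribosomal protein genes away from D1 peaks. The median distance from a start to the nearest IDR summit was 21518 bp, against 18118 bp over all coding genes, and 86.0% of ribosomal protein genes were more than 5000 bp from one, against 77.1%. For the pooled list the median was 7159 bp, against 4293 bp. Examples of genes bound in neither replicate list, taken in symbol order, were RpL10Aa, RpL11, RpL12, RpL13, RpL13A, RpL14 and RpL18. Their nearest pooled summits were from 5242 bp (RpL13) to 85634 bp (RpL12) away.

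Other genes of ribosome production and translation were set against the same background of 8.46% of coding genes in the IDR list and 26.7% in the pooled list. Among mitochondrial ribosomal protein genes 9 of 73 were bound in the IDR list (12.3%) and 19 in the pooled list (26.0%), led by mRpL41 (signal 737), mRpL13 (380), mRpL24 (371) and mRpL20 (256). The cytosolic set had no peak above 201. Among 54 translation factor genes 3 were bound in the IDR list (5.56%) and 9 in the pooled list (16.7%). These 3 were eIF4EHP (signal 898), which encodes a cap-binding repressor of translation, eEF2 (164), the gene of the translocation factor, and eIF4G1 (147), the gene of an initiation scaffold. Of 30 symbols listed for ribosome biogenesis, 27 were found in the annotation. The list includes Rrp1 and Rtf1, and the role of each member was not checked. Of the 27, 2 were bound in the IDR list, l(3)72Dn (339) and Nnp-1 (169), and 4 in the pooled list. Of 7 RNA polymerase I genes Polr1E (274) was bound. Among 7 genes of factors known from ribosomal protein or housekeeping promoters, Trf2 (170), Trl (169) and Myc (142) were bound in the IDR list, BEAF-32 in the pooled list, pzg in replicate 1 only, and Dref and M1BP in none.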

How the data were processed

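The data were 4 deposited peak lists on dm6. Per the deposited notes, the authors called peaks for each replicate and for the pooled alignments against a control file, and made the IDR set from those lists. No source used here names the aligner, peak caller or IDR threshold. The authors' deposited signal of each peak ranked it within its list. The deposited -log10 q-values were not used, since many peaks share the maximum. The deposited summit offset, added to the peak's start, gave the summit.

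Starts came from Ensembl release 115 (BDGP6, dm6 coordinates) and sequence from NCBI's Release 6 assembly; every peak ended within its chromosome. Coding genes on other sequences (41) were left out. Distances are signed by strand and taken for the highest peak within 500 bp. Python 3.11.15, pandas 2.3.3 and numpy 2.4.6 were used, and the calls were tested on simulated data. The 2 samples form 1 group by their labels; read depth is unknown, no column was unmapped, and no test between groups was possible. Alternatives changed the distance, the position of a peak, the starts, the genes and the peaks counted. Members, lists and the centromere segments were chosen with earlier results of these data known. Named genes were the IDR-bound members, the 12 next highest, the first 8 unbound by symbol (1 is not reported here), stalk, -like and paired genes, neighbours of IDR-bound members and up to 4 per other list; RpS3, RpS6, RpS9, RpS23, RpL10, RpL19, RpL21, RpL27, RpS15, Ripalpha, BEAF-32, Dref, M1BP and pzg were chosen after their values were seen.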

Additional observations from a re-analysis of the deposited data

How the results depend on the processing

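The IDR count of 5 became 3 with summits within 250 bp, 3 among genes with no neighbouring start and 1 (RpL37A) in the upper part of the list by signal. It was 6 within 1000 bp and stayed 5 with any base of the peak and with the 5'-most start only. On a single replicate's highest peaks it ranged from 3 to 4. Without replicate 1 the lost gene was RpS30, and without replicate 2 the lost genes were RpS3A and RpS30. The coding share of 8.46% became 5.72% (250 bp), 10.6% (1000 bp), 9.44% (any base of the peak within 500 bp), 6.98% (5'-most start only), 8.30% (no neighbouring start), 4.55% (upper part by signal) and 5.48% (genes no longer than the longest member, chosen after seeing the data), and ranged from 8.50% to 8.68% over the replicates. The pooled count of 25 became 9 among the 21 genes with no neighbouring start and 13 with the 10000 highest peaks, and ranged from 23 to 25 over the replicates. With summits within 250 bp it was 18 (19.4%), within 1000 bp 32 (34.4%) and with any base 30 (32.3%). It was 20 (21.5%) in the upper part by signal and stayed 25 (26.9%) with the 5'-most start only. The pooled coding share of 26.7% became 19.3% (250 bp), 32.6% (1000 bp), 29.5% (any base), 24.3% (5'-most start), 28.6% (no neighbouring start), 20.2% (upper part), 16.6% (10000 highest) and 18.5% (length limit), and ranged from 27.5% to 28.7% over the replicates. Peak midpoints, and leaving out symbols ending in -like, kept both member counts within 1.5 times. The median summit distance of -15 bp became -77.5 bp within 1000 bp and ranged from -81 to -57 bp over the replicates. The median signal ranged from 39.0 to 52.0 over the replicates' own lists, whose scale differs from the pooled one. In 1000 bp windows 17 members had GGTCACACT, 45 AAAAAAAA, 51 GAGAG and 12 CATATG, as wider windows hold more words. TCTTT lay at the 5'-most start of 25 members. No paired analysis was possible because there is 1 group. Depth is unknown.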
